A study of Homo sapiens with 16 samples.

Results

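Cytoplasmic ribosomal protein genes were followed across 20 ChIP-seq peak lists from HCT116 cells, a long-established line from a human colon carcinoma. The genes were taken by symbol: protein-coding genes of chromosomes 1 to 22 named RPL, RPS or RPLP and a number, with the short suffixes of their paralogs. This gave 79 genes among 19126 protein-coding genes of those chromosomes, 49 of the large subunit (3 of them in the stalk) and 30 of the small subunit. No measured value entered the choice. A gene held a peak if a peak overlapped its body extended by 1 kb to each side, and 62 of the 79 genes also had a known start site. The precipitated proteins were ARID1A, the DNA-binding subunit of a SWI/SNF remodelling complex, the corepressor TRIM28, also called KAP1, SETDB1, a methyltransferase of histone H3 lysine 9, and H3K9me3, the trimethylated form of that lysine. ARID1A, H3K9me3 and TRIM28 were mapped in cells with no shRNA in their label (called unmodified), all 4 in shCtrl cells, which carry a control shRNA, and H3K9me3, TRIM28 and SETDB1 in shARID1A cells, whose shRNA is directed against ARID1A. Each state and antibody had 1 library, called once against input and once against IgG, so no difference between states has a replicate check.

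Ribosomal proteins coat and shape the RNA of the ribosome. Their genes are short, active in every dividing cell and spread over the genome, and they are expressed together. Many of their transcripts start with a run of pyrimidines that places their translation under mTOR, and many carry small nucleolar RNAs (snoRNAs) in their introns. SETDB1, TRIM28 and H3K9me3 are best known at silent repeats and zinc finger genes, not at promoters of this kind.

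Peaks of shARID1A H3K9me3 described below were densest 100 and 150 bp upstream of the start site. Those of shCtrl SETDB1 were densest 200 and 250 bp upstream. The 150 bases before the start site hold the former positions but not the latter. These bases are shown for 4 members with a start-site peak against input in many libraries and for 2 with none. They come from RefSeq on GRCh38.p14 and run 5′ to 3′ on the strand of the gene. Capitals mark the ETS core CGGAAG, the YY1 core GCCAT, the TATA box TATAAA and the SP1 core GGGCGG, each searched on both strands, and no motif contains another.
RPL17, chr18:49492466-49492615, minus strand: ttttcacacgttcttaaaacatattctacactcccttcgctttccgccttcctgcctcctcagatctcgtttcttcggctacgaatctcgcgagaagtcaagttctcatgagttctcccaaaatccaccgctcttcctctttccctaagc
RPL12, chr9:127451407-127451556, minus strand: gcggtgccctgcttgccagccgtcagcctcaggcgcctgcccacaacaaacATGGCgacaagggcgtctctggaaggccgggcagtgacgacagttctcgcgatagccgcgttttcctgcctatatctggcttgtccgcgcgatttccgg
RPS6, chr9:19380237-19380386, minus strand: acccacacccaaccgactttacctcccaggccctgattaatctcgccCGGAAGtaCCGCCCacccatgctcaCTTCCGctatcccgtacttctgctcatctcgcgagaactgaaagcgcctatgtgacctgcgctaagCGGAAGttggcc
RPL34, chr4:108620426-108620575, plus strand: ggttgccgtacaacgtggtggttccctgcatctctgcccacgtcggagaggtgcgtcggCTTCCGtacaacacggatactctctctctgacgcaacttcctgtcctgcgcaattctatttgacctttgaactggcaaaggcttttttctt
RPL10L, chr14:46651782-46651931, minus strand: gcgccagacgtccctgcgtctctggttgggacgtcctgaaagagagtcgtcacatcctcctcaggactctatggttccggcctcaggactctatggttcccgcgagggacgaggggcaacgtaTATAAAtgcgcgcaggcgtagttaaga
RPL26L1, chr5:172958579-172958728, plus strand: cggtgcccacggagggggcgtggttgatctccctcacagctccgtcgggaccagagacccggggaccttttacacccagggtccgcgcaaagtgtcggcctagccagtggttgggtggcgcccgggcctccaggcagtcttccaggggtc
RPL17 and RPL12, both of the large subunit, had start-site peaks against input in 6 of 10 libraries, RPS6, whose product is phosphorylated downstream of mTOR, in 5, and RPL34 in 4, as had RPL15, RPL31 and RPS13. The paralogs RPL10L and RPL26L1 had them in 0. Against IgG, RPL26L1 had start-site peaks in 5 libraries and RPL10L in 0. RPL17, RPL12, RPS6 and RPL34 had them there in 7, 6, 7 and 7.

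The lists differ too much in length for counts to be read alone. Against input they held 11374 to 203714 peaks, and all included peaks with an unadjusted p near 0.05, so a further threshold of a q of at most 0.05 is used below and such peaks are called strong. The median summit held 5 to 12 fragments. The leading peaks of some libraries met lists of another antibody more often than lists of their own. Of the 10000 leading peaks of the library labelled shCtrl H3K9me3, 69.0% overlapped one of the 79404 peaks of shCtrl SETDB1 and 45.4% one of the 29576 of unmodified ARID1A. With shCtrl ARID1A (108926 peaks) the share was 24.4%, with shARID1A H3K9me3 (56886) 12.4% and with unmodified H3K9me3 (11374) 1.16%. Of the 10000 leading peaks of shCtrl SETDB1, 48.3% overlapped a peak of shARID1A H3K9me3 and 15.3% one of shARID1A SETDB1 (39245 peaks). Zinc finger (ZNF) genes of chromosome 19, textbook sites of H3K9me3, held a leading peak of shCtrl H3K9me3 against input in 4 of 246 cases, or 1.63%, where 15.5% of all genes did. For shARID1A H3K9me3 they held one in 14.2% of cases, against 15.3% of all genes, and for unmodified H3K9me3 in 13.0%, equal to the share of all genes, so no H3K9me3 list against input stood out at them. Against IgG the shares were 1.22% for shCtrl, 12.2% for shARID1A and 20.3% for unmodified H3K9me3, against 16.8%, 22.2% and 14.8% of all genes. Libraries are therefore named by their labels throughout. Loss of ARID1A itself could not be checked, since ARID1A ChIP of shARID1A cells was not analysed here.

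SETDB1 of shCtrl cells was the library in which ribosomal protein genes most often held a peak. Against input, 67 of 79 members held one, or 84.8%, where 59.9% of all protein-coding genes did. Length sets part of such shares, since members had a median length of 5015 bp. Among 2286 other genes within the middle range of the members' lengths, 3334 to 7812 bp, 33.7% held one. Strong peaks were at 49 members, against 44.5% of all genes and 20.6% of those of like length. Peaks with a fold enrichment over background of at least 5 were at 20 members, or 25.3%, against 22.4% of all genes. Ribosomal protein pseudogenes, 1847 copies in the table, held a peak of this library in 7.96% of cases, and the part of reads that fit several copies was not tested.

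In the other libraries the members' counts against input lay closer to, or under, those of all genes. ARID1A in shCtrl cells had peaks at 40 members, against 54.1% of all genes and 27.1% of those of like length. H3K9me3 in shARID1A cells had them at 37, against 48.1% and 19.0%. TRIM28 in shARID1A cells, the longest list, had them at 38, against 73.7% and 43.0%, and SETDB1 in shARID1A cells at 25, against 45.1% and 19.9%. In shCtrl cells H3K9me3 had peaks at 13 members, against 48.2% of all genes and 15.9% of those of like length, and TRIM28 at 12, against 41.8% and 10.5%. In unmodified cells 10 members had an ARID1A peak, 3 an H3K9me3 peak and 16 a TRIM28 peak, against 26.9%, 14.2% and 29.6% of all genes. In 7 libraries 0 members held a strong peak against input. Among all genes such peaks were at 12.0% in shCtrl H3K9me3, 4.04% in shARID1A TRIM28 and 2.04% in unmodified ARID1A. The share was 0.0889% in shCtrl ARID1A, 0.0366% in shCtrl TRIM28, 0.0261% in unmodified TRIM28 and 0.0105% in unmodified H3K9me3. All 79 members are covered by these counts, and none was filtered out.

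**Figure D1:**
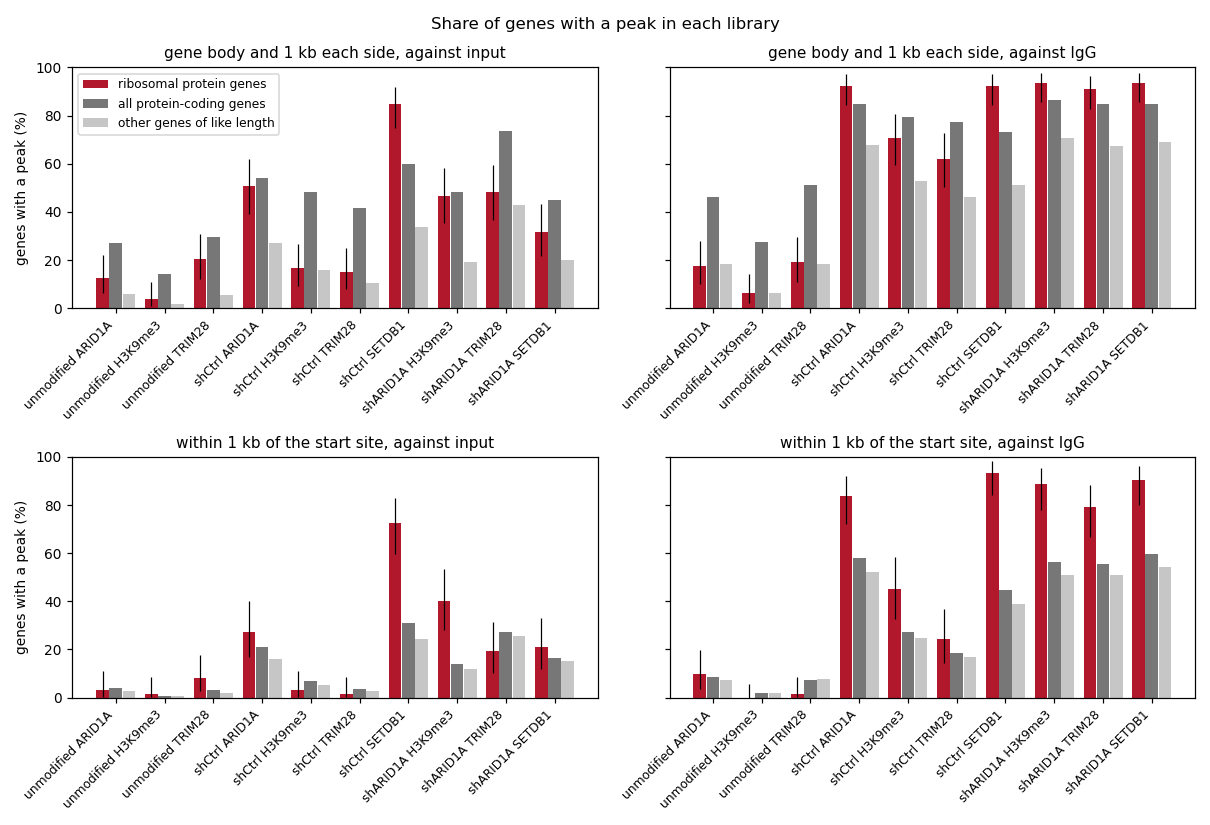
Percent of genes with a peak (y axis) in each of the 10 libraries (x axis), for ribosomal protein genes (red, with exact 95% binomial intervals that cover counting only), all protein-coding genes (dark grey) and other genes of like length (light grey). Rows show the extended gene body and the window of 1 kb around the start site, and columns the lists against input and IgG; in shCtrl SETDB1 against input, 84.8% of members stand above 59.9% of all genes, and 72.6% above 30.8% at the start site.

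At the start site the members stood further above all genes in shCtrl SETDB1, and above them in shARID1A H3K9me3. Within 1 kb of it, SETDB1 of shCtrl cells had a peak against input at 45 of 62 members, or 72.6%, against 30.8% of all 15101 genes with a start site and 24.4% of those of like length. H3K9me3 of shARID1A cells followed with 25 members, or 40.3%, against 13.9%. ARID1A of shCtrl cells had 17, against 21.2%, SETDB1 of shARID1A cells 13, against 16.4%, and TRIM28 of shARID1A cells 12, against 27.2%, all near or under the share of all genes. The other 5 libraries had few members there. These were 5 for unmodified TRIM28, against 3.07% of all genes, 2 for shCtrl H3K9me3, against 6.77%, and 2 for unmodified ARID1A, against 3.88%. TRIM28 of shCtrl cells and H3K9me3 of unmodified cells had 1 each, against 3.52% and 0.768%. Strong peaks of shCtrl SETDB1 lay at 33 start sites, against 19.4% of all genes, and those of shARID1A H3K9me3 at 6, against 3.79%.

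The lists called against IgG were longer and put more peaks at start sites in general. There SETDB1 of shCtrl cells had a start-site peak at 58 of 62 members, against 44.7% of all genes, SETDB1 of shARID1A cells at 56, against 59.5%, and H3K9me3 of shARID1A cells at 55, against 56.3%. ARID1A of shCtrl cells had 52, against 58.0%, and TRIM28 of shARID1A cells 49, against 55.6%. H3K9me3 and TRIM28 of shCtrl cells had 28 and 15, against 27.2% and 18.6%. With strong peaks alone, 53 members remained for shCtrl SETDB1, against 33.6% of all genes, 44 for shARID1A H3K9me3, against 26.7%, and 25 for shARID1A SETDB1, against 12.4%. The libraries shCtrl SETDB1, shCtrl ARID1A, shARID1A H3K9me3 and shARID1A SETDB1 all had a start-site peak against IgG at 46 members, against 29.3% of all genes. Lists of a state may share their control library, and the part of a shared control in these joint peaks was not tested.

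Peaks of shCtrl SETDB1 were densest just upstream of the start sites. Against input the share of members under a peak was highest 200 bp upstream, at 46.8%, and was 37.1% at the start site itself, where it was 7.5% for all genes. Against IgG it was highest 250 bp upstream, at 71.0%. The highest peak of a member had its summit a median of 15 bp downstream of the start, with quartiles of -192 and 2713 bp, and 30 of 53 summits lay within 500 bp of the start on either side. H3K9me3 of shARID1A cells had the same kind of peak, with a highest share of 27.4% at 150 bp upstream against input and 74.2% at 100 bp upstream against IgG. At the start site itself 20.5% of all genes lay under a peak of the latter list. SETDB1 of shARID1A cells peaked slightly downstream, at 11.3% of members 150 bp past the start against input and 69.4% at 100 bp past it against IgG. Against input its peaks covered the start site itself in 6.45% of members and 7.03% of all genes, and against IgG in 66.1% and 29.4%. ARID1A of shCtrl cells had a median summit of 1558 bp downstream, and 9 of its 33 members with a peak and a start site had it within 500 bp of the start. Against IgG its share was highest 100 bp upstream, at 51.6%, with a median summit of 647 bp downstream and 24 of 57 within 500 bp. Its peaks covered the start site itself in 6.45% of members and 5.42% of all genes against input, and in 40.3% and 23.9% against IgG.

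**Figure D2:**
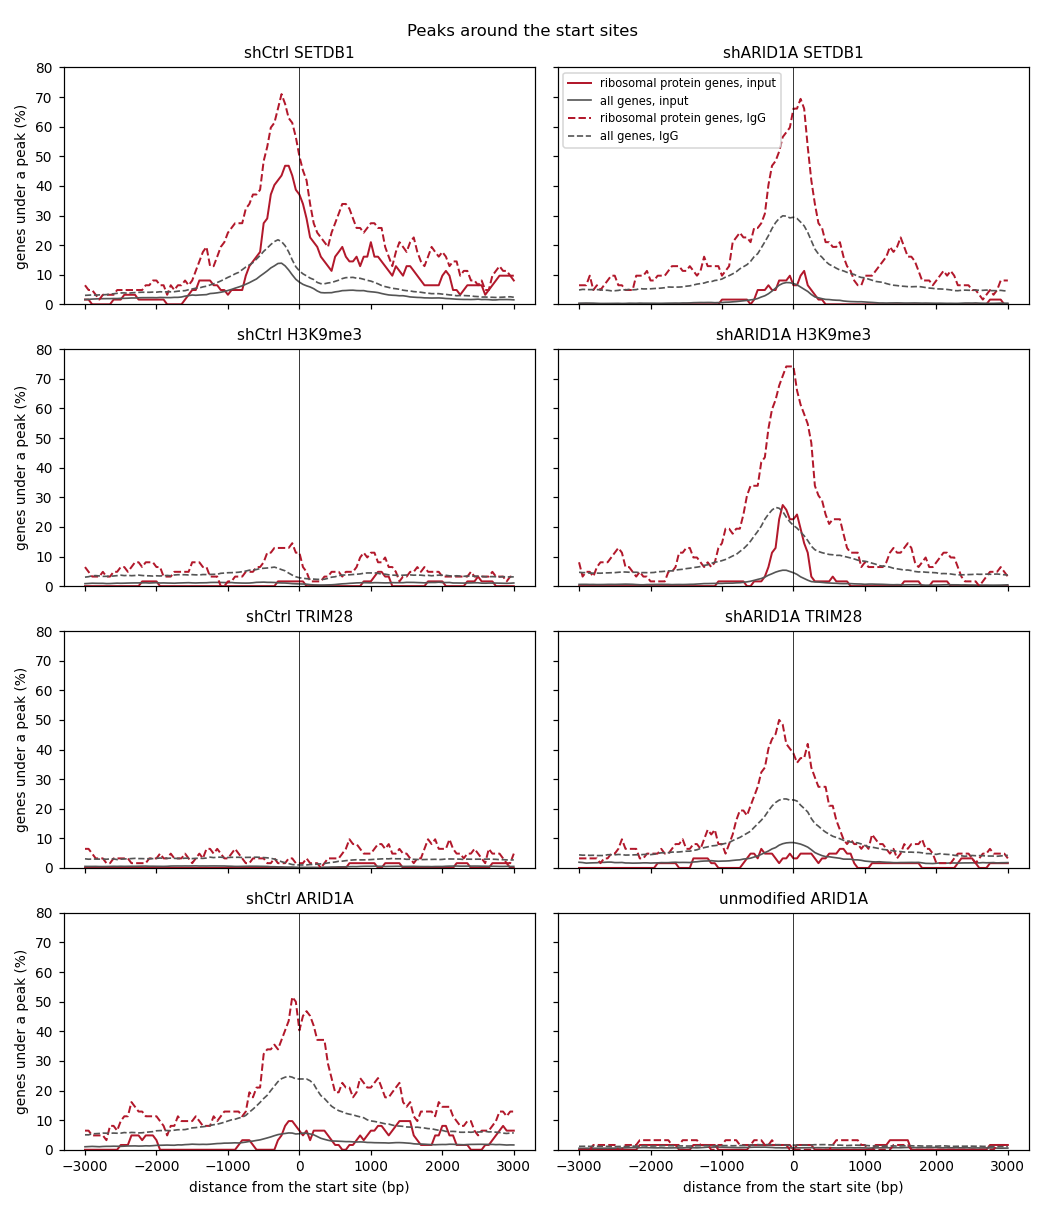
Percent of genes under a peak (y axis) by distance from the start site in bp (x axis, negative upstream), for the 62 ribosomal protein genes with a start site (red) and all protein-coding genes (grey), in lists against input (solid) and IgG (dashed) of 8 libraries. The red curve of shCtrl SETDB1 reaches 46.8% against input, that of shARID1A H3K9me3 27.4%, and those of shCtrl H3K9me3 and shCtrl TRIM28 stay near the grey curves against input.

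RPL27, a large-subunit gene on chromosome 17, had the highest fold of all members against input. Its shCtrl SETDB1 peak at chr17:42997623-42998534 (hg38) held 76 fragments at the summit over a local background of 4.03, a fold of 14.4, with the summit 125 bp upstream of the start. The other input lists gave RPL27 only low peaks, with a fold of 2.36 in unmodified ARID1A and 2.9 in shARID1A H3K9me3, and listed none in the remaining 7 libraries. RPL35A, another gene of the large subunit and one of those linked to Diamond-Blackfan anaemia, followed with 10.3, from 54 fragments over 4.03, 155 bp upstream of its start. That summit also lies in the neighbouring gene DRC9. RPL24, of the large subunit too, had a fold of 9.51 from 40 fragments, 68 bp downstream of the start. Over the 67 members with a peak of this library the folds ran from 2.28 to 14.4 with a median of 3.89, and over all genes with one the median was 4.34. At start sites the order turned, with a median of 4.29 over 45 members and 3.67 over all genes.

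Further down the list stood RPS14 (8.24), a small-subunit gene, RPL41 (8.12), whose summit lay 1363 bp past the start, RPL34 (7.91), RPL32 (7.41) and the paralog RPL7L1 (7.36), then RPS27A (6.93), which encodes ubiquitin fused to a small-subunit protein. RPL31 had a fold of 6.23 and RPL38 6.15. Against IgG the highest was RPL38, with 21.8 from 73 fragments over 2.38 and a summit 33 bp upstream of the start, ahead of RPL35A with 16.2. RPL38, a large-subunit gene whose reduced dose in mice alters the skeleton, moved up with the control alone. Of the 58 members with a start-site peak of shCtrl SETDB1 against IgG, the median fold was 6.61, and over all genes with one it was 4.51.

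H3K9me3 of shARID1A cells had high folds at RPL18 and RPS14. RPL18 encodes a large-subunit protein, and its peak at chr19:48619136-48619411 had a fold of 4.75, from 15 fragments over 2.34, with the summit 143 bp upstream of the start. RPS14 had 4.35, from 26 fragments over 5.18, with the summit 299 bp upstream. Strong peaks were at 10 members, or 12.7%, against 18.1% of all genes but 4.33% of those of like length. At RPS14 the peaks of 3 libraries lay on top of each other. Its shCtrl SETDB1 peak spanned 150449776 to 150450445 on chromosome 5, the shARID1A H3K9me3 peak 150449902 to 150450303 and the low shARID1A SETDB1 peak (fold 2.07) 150449934 to 150450241. No RPS14 peak was listed against input in shCtrl H3K9me3, shCtrl TRIM28 or any library of unmodified cells.

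Several members had peaks of both libraries at the same place. Peaks of shCtrl SETDB1 and shARID1A H3K9me3 overlapped at 25 members against input, where 23.2% of all genes had such an overlap. Confined to peaks at the start site they overlapped at 19 of 62 members, against 5.37% of all genes, and against IgG at 53, against 32.7%. Strong peaks of both overlapped against input at 7 members (RPL5, RPL15, RPL37, RPS3A, RPS7, RPS14 and RPS15A), against 10.9% of all genes, and at 4 start sites, those of RPL15, RPS3A, RPS7 and RPS14, against 1.47% of all genes. The 25 members are 37.3% of the 67 with a shCtrl SETDB1 peak and 67.6% of the 37 with a shARID1A H3K9me3 peak. By contrast, shCtrl SETDB1 shared a peak with shCtrl H3K9me3 at 5 members (RPL6, RPL7, RPL31, RPL37A and RPS6), against 22.1% of all genes, and with shCtrl TRIM28 at 2 (RPL7 and RPL34), against 9.13%. With shCtrl ARID1A it shared one at 20 members, against 19.1%, and at 12 of 62 start sites, against 6.17%. The 5, 2 and 20 members are 38.5%, 16.7% and 50.0% of those with a shCtrl H3K9me3, TRIM28 and ARID1A peak. Against IgG shCtrl SETDB1 overlapped shARID1A H3K9me3 at 70 members, against 57.6% of all genes, and shCtrl ARID1A, H3K9me3 and TRIM28 at 57, 40 and 27, against 47.7%, 40.9% and 28.5%.

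Within shARID1A cells the overlaps of the 3 libraries at members depended on the control. Against input SETDB1 and H3K9me3 overlapped at 6 members, against 8.77% of all genes, SETDB1 and TRIM28 at 6, against 15.0%, and TRIM28 and H3K9me3 at 6, against 16.4%. RPL12, whose protein sits at the base of the stalk, and RPL17, whose protein lines the exit tunnel, were in all 3 of these sets. Against IgG the same pairs overlapped at 69, 59 and 64 members, against 60.4%, 59.2% and 58.0% of all genes. Across states and against input, shCtrl and shARID1A SETDB1 shared a peak at 9 members, against 8.57%, shCtrl and shARID1A H3K9me3 at 1 (RPL5), against 6.55%, and shCtrl and shARID1A TRIM28 at 0, against 6.81%. Against IgG these counts were 64, 32 and 6, against 46.9%, 41.0% and 27.9%.

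Between shCtrl and shARID1A cells, fewer members held a SETDB1 peak against input in the latter. There were 25 against 67, with 21 members in both, against 34.9% of all genes, 46 in shCtrl alone, where 25.1% of all genes were, and 4 in shARID1A alone, against 10.2%. The shARID1A list was also shorter, with 39245 peaks against 79404, and held 1363 strong peaks against 37702, and the precipitated library had been scaled to its input by 0.97 against 0.74. With the 10000 leading peaks of each list alone, the counts were 12 in shARID1A and 25 in shCtrl cells, against 20.9% and 18.5% of all genes. Against IgG, where the lists held 276586 and 114369 peaks, the counts were 74 and 73, against 84.9% and 73.0% of all genes, with 72 in both, against 70.0%. Strong peaks of those lists were at 31 members in shARID1A and 70 in shCtrl cells, against 20.6% and 59.4%. RPS18 alone had a SETDB1 peak in both control lists of shCtrl cells and in neither of shARID1A cells, against 1.54% of all genes, and RPL3L and RPL8 were the reverse, against 4.49%. Of the 10000 leading peaks of shCtrl SETDB1, 48.3% overlapped a peak of shARID1A H3K9me3 and 15.3% one of shARID1A SETDB1. Whether library depth, ARID1A knockdown or the labelling of the libraries moved these counts cannot be told apart with 1 library per group.

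SETDB1 of shARID1A cells had strong peaks against input at 4 members, against 4.07% of all genes. Among them RPL15, linked to Diamond-Blackfan anaemia, had a fold of 4.76 with a summit 320 bp downstream of its start, also in NKIRAS1, and the stalk gene RPLP2 had 4.71 with a summit 336 bp upstream. RPL17 had 4.41 with a summit 206 bp downstream. In shCtrl SETDB1, RPL15 and RPL17 had strong peaks with 3.97 and 5.96, and RPLP2 was listed with no peak. RPLP2 also had a TRIM28 peak of shARID1A cells, with a fold of 2.84, at the same place.

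H3K9me3 counts went the other way, with 37 members in shARID1A against 13 in shCtrl cells. Of the 79 members, 31 had one in shARID1A alone, against 15.9% of all genes, 7 in shCtrl alone, against 16.0%, and 6 in both, against 32.2%. Against IgG the counts were 74 and 56, against 86.5% and 79.3% of all genes, and in the start-site window against input 25 and 2 of 62. This comparison rests on the shCtrl H3K9me3 library, whose leading peaks mostly overlapped those of shCtrl SETDB1. The H3K9me3 library of unmodified cells, which also lack the shRNA against ARID1A, had 3 members against input. Members with peaks in both control lists of shARID1A and neither of shCtrl numbered 6, against 3.05% of all genes, led by RPL21 (fold 3.85 against input), RPS26 (2.88), RPL11 (2.58), RPL36 (2.49) and RPS16 (2.49), and 0 members were the reverse, against 1.19%. RPL11 and RPS26 are linked to Diamond-Blackfan anaemia, and RPL11 protein binds MDM2 when ribosome assembly fails. In shCtrl H3K9me3 the highest members were RPS23 (3.51), a small-subunit gene, RPL14 (2.89) and RPL3 (2.87), which reaches the catalytic centre, all with summits 3293 to 10861 bp past the start.

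TRIM28 had peaks at 38 members in shARID1A and 12 in shCtrl cells against input. Of the 79 members, 32 had one in shARID1A alone, against 35.7% of all genes, 6 in shCtrl alone, against 3.87%, and 6 in both, against 38.0%. The lists held 203714 and 70447 peaks. In shARID1A high folds were at the stalk gene RPLP1 (3.39), 753 bp past its start, and RPL21 (3.34), past the end of the gene. Members in both control lists of shARID1A and neither of shCtrl numbered 15, against 8.41% of all genes, led by RPLP1, RPS3A, RPL37, RPLP2 and RPL18. RPL7 alone was the reverse, against 0.967%. In shCtrl cells RPS7 (2.96), RPL31 (2.88) and RPL7 (2.83) led. None of these TRIM28 peaks was strong against input. Against IgG, 6 members had a strong TRIM28 peak in shARID1A, against 10.8% of all genes, and 0 in shCtrl cells, against 0.774%.

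**Figure D3:**
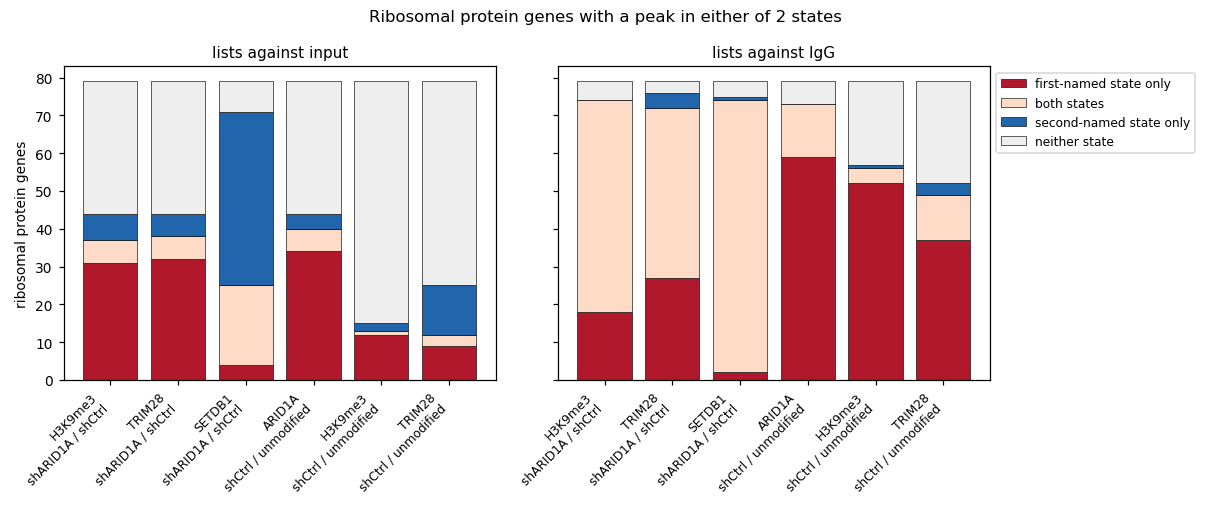
Number of ribosomal protein genes (y axis, 79 in each bar) with a peak in the first-named state only, in both, in the second-named state only or in neither, for 6 comparisons of an antibody between 2 states (x axis), in lists against input (left) and IgG (right). The blue part of the SETDB1 bar, 46 members with a peak in shCtrl cells alone against input, shrinks to 1 against IgG.

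ARID1A itself had 40 members with a peak in shCtrl and 10 in unmodified cells against input, both without shRNA against ARID1A. Of the 79 members, 6 had one in both states, against 23.1% of all genes. A peak in both control lists of shCtrl and neither of unmodified cells was at 29 of the 79, against 18.0%. These were led by RPS27A (3.47), RPL26 (3.25), RPS15A (3.16), RPL9 (3.14) and RPL6 (3.01). The highest shCtrl ARID1A fold was at RPS19 (3.7), the gene most often mutated in Diamond-Blackfan anaemia, past the end of the gene. Against IgG the counts were 73 and 14, against 85.0% and 46.0% of all genes. The input lists held 108926 and 29576 peaks, and at start sites their counts were 17 and 2. In unmodified cells RPL22L1 (3.39), RPL24 (2.77) and RPS3A (2.46) led, with summits 1282 to 2890 bp past the start.

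H3K9me3 of shCtrl cells also had more members than that of unmodified cells. Against input it had 13 against 3, and against IgG 56 against 5, where 79.3% and 27.4% of all genes had a peak. Of the 79 members, 11 had a peak in each control list of shCtrl and neither of unmodified cells, against 23.5% of all genes. They were led by RPS23, RPL14, RPL3, RPS6 and RPL7. At 7 of the 79 members an input peak of shCtrl H3K9me3 overlapped a peak against IgG, against 41.7% of all genes. The 3 of unmodified cells were RPL32 (2.54), RPL4 (2.54) and RPS13 (2.38). TRIM28 had 12 against 16 against input but 49 against 15 against IgG, where 77.3% and 51.2% of all genes had a peak, and 5 members were in both control lists of shCtrl alone (RPL7, RPL35, RPL32, RPL11 and RPS21), against 7.5% of all genes. In unmodified TRIM28 the highest were RPL34 (2.66), RPS7 (2.64) and RPS3A (2.52). All of these folds were low, and none of the peaks was strong against input.

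**Figure D4:**
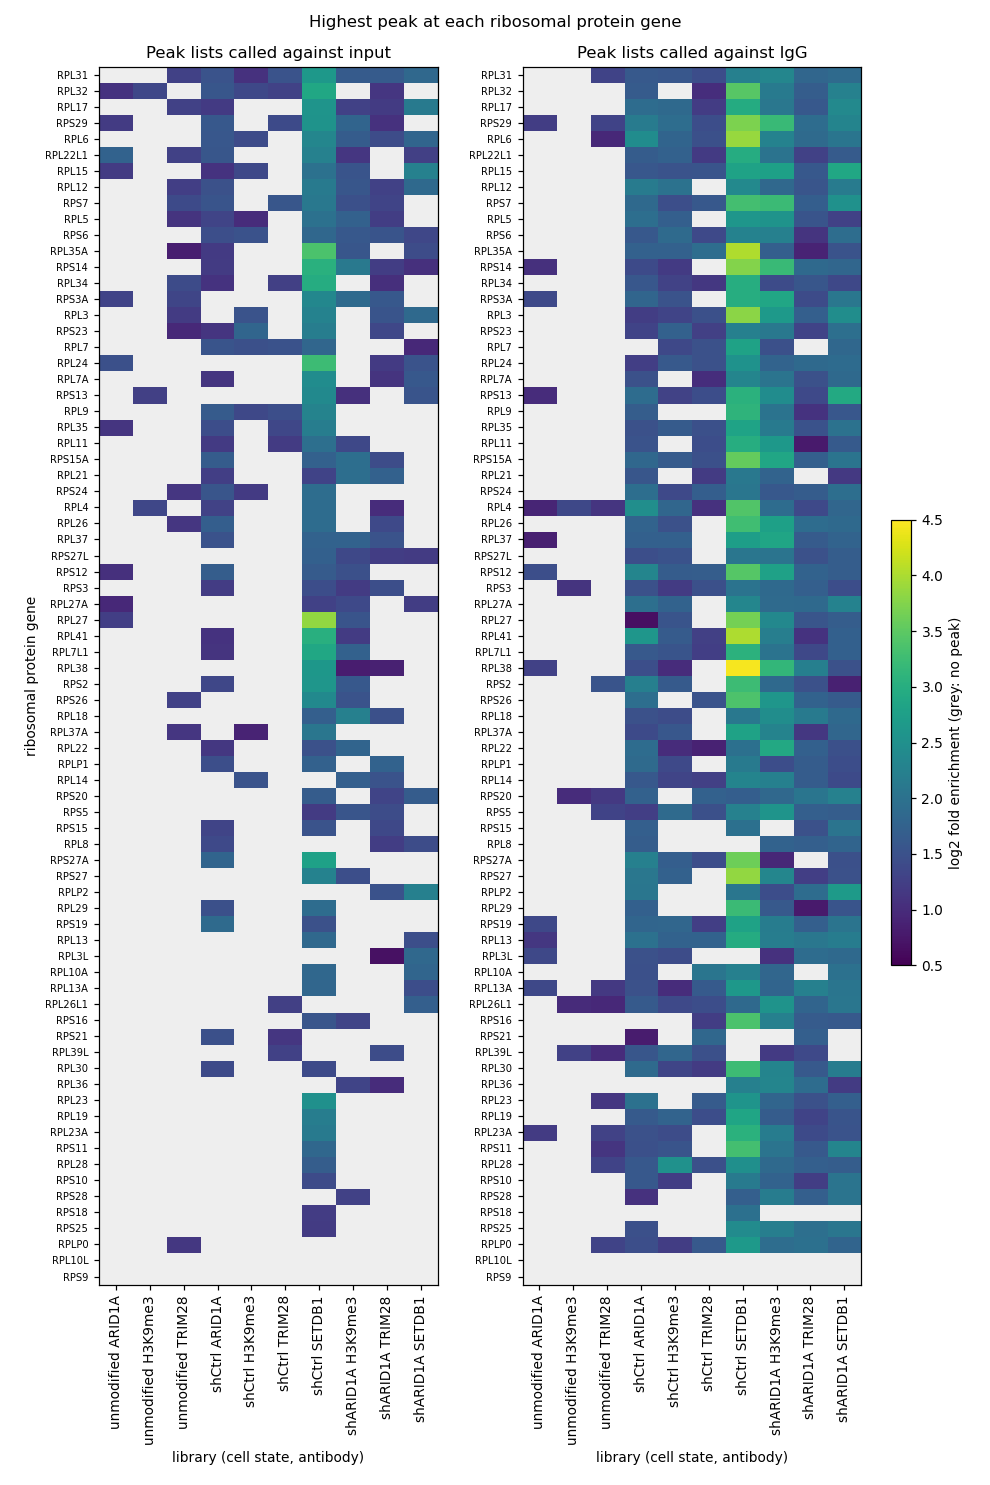
Highest fold enrichment (log2, colour; grey where the list holds no peak) at 76 of the 79 ribosomal protein genes (rows, ordered by the number of libraries with a peak against input) in the 10 libraries (columns), for lists against input (left) and IgG (right). The shCtrl SETDB1 column is filled at 64 of these rows against input and 70 against IgG, and RPL10L and RPS9 at the foot are grey throughout.

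The members differed in how many libraries reached them. Against input, 2 members had a peak in 0 libraries, 10 in 1, 16 in 2, 17 in 3, 16 in 4 and 18 in 5 to 8. RPL31 and RPL32, both of the large subunit, led with 8 and 7 libraries. RPL31 had peaks in all 7 libraries of shRNA cells, with folds of 6.23 in shCtrl SETDB1, 3.62 in shARID1A SETDB1, 3.14 in shARID1A H3K9me3, 3.13 in shARID1A TRIM28 and 2.1 to 2.88 in the other shCtrl libraries. The highest peaks did not lie at 1 place: their summits fell 58 bp past the start in shCtrl SETDB1, 313 bp before it in shARID1A SETDB1, 1232 to 1507 bp past it in the other shCtrl libraries and 13417 and 13992 bp past it in shARID1A H3K9me3 and TRIM28, in a stretch that also belongs to TBC1D8. Lower peaks of shCtrl ARID1A (2.57) and shARID1A H3K9me3 (2.78) did lie within 1 kb of the start. The eighth library, unmodified TRIM28, had a fold of 2.43 there, 15388 bp past the start. RPL32 had its strong shCtrl SETDB1 peak 251 bp before the start, and in shCtrl TRIM28 a low peak (2.45) 4583 bp past it.

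RPL17 had its highest peaks around the start site, though not all at 1 place. Its start-site peaks of shCtrl SETDB1 and shARID1A SETDB1 did not overlap. Against input it had peaks in 6 libraries, at folds of 5.96 in shCtrl SETDB1, 4.41 in shARID1A SETDB1, 2.43 in unmodified TRIM28, 2.42 in shARID1A H3K9me3, 2.29 in shARID1A TRIM28 and 2.26 in shCtrl ARID1A. All of their summits lay between 432 bp before and 610 bp after the start, over and around the promoter printed above. RPL12 also had peaks in 6 libraries, but its highest, in shCtrl SETDB1 (4.44), lay 4908 bp past the start, and the start-site peak of that library had a fold of 3.06. RPS29, a small-subunit gene, had its highest fold (5.86) in shCtrl SETDB1 at 11902 bp past the start, inside the gene, and a start-site peak of 3.46 in shARID1A H3K9me3. RPL6, of the large subunit, had 5.05 in shCtrl SETDB1 and start-site peaks only against IgG, where shCtrl ARID1A had 5.45 and shCtrl SETDB1 3.79.

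At the other end, RPL10L and RPS9 had 0 peaks in all 20 lists. RPL10L is a paralog used in the testis, while RPS9 belongs to every ribosome. The stalk gene RPLP0 had 1 library (unmodified TRIM28, 2.21), as did RPS25 (2.3) and RPS18 (2.32), both of the small subunit and both in shCtrl SETDB1. RPS9 lies in the leukocyte receptor complex on chromosome 19 and RPS18 in the MHC on chromosome 6, regions with alternate sequences in the assembly. Within 200 kb of either gene all 20 lists together held 50 peaks, the lowest numbers among members, where the median was 505 and RPL10L had 209. The lists also held 18315 peaks on 232 alternate sequences, and the part of these sequences in the empty stretches was not tested.

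By subunit, shCtrl SETDB1 had peaks against input at 40 of 49 large-subunit and 27 of 30 small-subunit genes, against 59.9% of all genes, and start-site peaks at 28 of 39 and 17 of 23, against 30.8%. These shares of all genes apply to the stalk and paralog genes too. The 3 stalk genes were less covered, with 1 (RPLP1, 3.36, past the end of the gene) and 0 start-site peaks, although against IgG, where 44.7% of all genes had one, all 3 did. Of 7 paralogs, 3 had a shCtrl SETDB1 peak against input: RPL7L1 (7.36), RPL22L1 (4.78) and RPS27L (3.32), a p53 target. RPL3L, the form of heart and muscle, had 3.61 in shARID1A SETDB1 and 1.61 in shARID1A TRIM28. RPL26L1 had 3.28 and 2.4, in shARID1A SETDB1 and shCtrl TRIM28. Against input the testis form RPL39L had TRIM28 peaks alone, 2.68 in shARID1A and 2.42 in shCtrl cells. Against IgG, RPL3L, RPL26L1 and RPL39L had peaks in 6, 9 and 7 libraries. These groups hold few genes, and no difference between them was tested.

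Genes linked to Diamond-Blackfan anaemia, an inherited failure of red cell production, held shCtrl SETDB1 peaks in 18 of 19 cases against input and shARID1A H3K9me3 peaks in 13 of 19, where 59.9% and 48.1% of all genes did. At start sites the counts were 13 of 16 and 10 of 16, against 30.8% and 13.9%. For shARID1A SETDB1 the count was 3 of 19, against 45.1%, and for shARID1A TRIM28 8 of 19, against 73.7%. Genes with a snoRNA gene inside held shCtrl SETDB1 peaks in 25 of 26 cases and those without in 42 of 53, against 59.9% of all genes, and at start sites in 12 of 16 and 33 of 46, against 30.8%, with medians of length of 4856 and 5057 bp. The lists were drawn up with earlier results of these data known, and many members stand in more than 1 of them.

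Other genes of protein synthesis and turnover, listed by function, also held start-site peaks of shCtrl SETDB1 against input more often than the 30.8% of all genes. The counts were 42 of 69 mitochondrial ribosomal protein genes, 21 of 28 translation factor and other oligopyrimidine-start genes, 32 of 52 ribosome biogenesis genes and 23 of 33 proteasome genes, beside 45 of 62 cytoplasmic ribosomal protein genes. For shARID1A H3K9me3 they were 23 of 69, 10 of 28, 14 of 52 and 5 of 33, beside 25 of 62 and 13.9% of all genes. High folds in shCtrl SETDB1 were at MRPL11 (9.81) and MRPL1 (9.06), of the mitochondrial ribosome, HNRNPA1 (9.91), EIF4A2 (6.9), a helicase of translation initiation, and PSMC5 (8.7), of the proteasome. A start-site peak of these libraries was thus not particular to ribosomal protein genes.

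The promoters of the members shared sequence features that did not enter their choice. In windows of 250 bases before to 50 after the start, 40 of 62 members had a C at the start followed by 4 pyrimidines, against 4.57% of all 15101 promoters. RPS6 begins ctcttttccgtg and RPL34 cctcttccgggg, while RPL17 begins agcctgaggtga and RPL26L1 ggcgaacgaaac. CGGAAG was in 37 members, or 59.7%, against 25.8% of all promoters, GCCAT in 30, or 48.4%, against 37.3%, GGGCGG in 32, or 51.6%, against 58.9%, and TATAAA in 7, or 11.3%, against 9.71%. The median GC content of the windows was 59.3% in members and 63.0% over all promoters. CGGAAG was found in 28 of the 45 members with a shCtrl SETDB1 start-site peak against input and in 9 of the 17 without, and the oligopyrimidine start in 29 and 11. No difference between these counts was tested, and a match of letters is not a bound site.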

How the data were processed

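Peaks of 10 libraries, each against 2 controls, were deposited as narrowPeak lists. The 6 control samples come with no separate peak list. The submitters' processing notes list ChIPseeker, deepTools 3.5.1, the peak caller MACS2 2.2.7.1, the aligner Bowtie2 2.2.5, FastQC 0.11.9 and the builds hg38 and GRCh38, without options. The deposited fold enrichment is the authors' ratio of the summit pileup to the local background, both scaled and raised by the same constant. It was used to rank within a list. Fragments and backgrounds are printed before these steps, so their plain ratio exceeds the fold. The deposited −log10 p and −log10 q come from the same peak call. The control of a list was read from its name. Titles with CTR were read as shCtrl. For H3K9me3 and TRIM28 the antibody product in the protocol differs from that in the characteristics.

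Genes and start sites came from RefSeq tables of GRCh38.p14 (Python 3.11.15, pandas 2.3.3, scipy 1.17.1). A gene had a peak if at least 1 bp overlapped. Fragments at summits were recovered from fold and p with a tolerance of 0.002 for a whole fragment, checked on 400 peaks with a fold below 4 per list; the recovery was also tested on simulated data. Sequencing totals were not derived. With 1 library per group, counts were described beside those of all protein-coding genes, with no test; exact Clopper-Pearson 95% intervals cover counting only. Named were the 3 members with the highest fold per library, up to 5 per direction of a comparison, the 5 in the most and fewest libraries, strong members where at most 5 had one, paralogs and stalk genes; members named beyond these were picked after their values were seen. Values of some single members are not reported here, and these members are left out of the heat map but not of the counts. Members and lists were chosen with earlier results of these data known. Alternatives were IgG lists, input peaks overlapping an IgG peak, strong peaks, 10000 leading peaks, the gene body alone, the start-site window and the summit. After seeing the data, 3 more were added. A member counted in both control lists of a state had a peak in each, and these peaks did not have to overlap.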

Additional observations from a re-analysis of the deposited data

How the results depend on the processing

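The counts of members with a peak rest on 1 library per group and on peaks of a few fragments, and many changed with the threshold and the control. With the gene body alone or the summit inside the region, the 6 differences between states kept their sign and moved by less than 1.5 times, except that TRIM28 between shCtrl and unmodified cells went from -4 to -2 with the gene body alone. The difference for SETDB1 between shARID1A and shCtrl cells was -42 members against input and 1 against IgG, -13 with the 10000 leading peaks of each list, -2 in the start-site window against IgG, and -28 there with strong peaks. For H3K9me3 it was 24 members, 10 with strong peaks, 9 with the leading peaks, 54 with strong peaks against IgG and 40 with those at start sites. In the last 2 settings all genes differed too, with 49.7% in shARID1A and 23.5% in shCtrl cells, and 26.7% and 3.17% at start sites. For TRIM28 the difference was 26, then 0 with strong peaks, 2 with the leading peaks, 11 in the start-site window, 34 there against IgG, 6 with strong peaks against IgG and 4 with those at start sites. Over all genes the shares were 73.7% in shARID1A and 41.8% in shCtrl cells against input, and 55.6% and 18.6% in the start-site window against IgG. Between shCtrl and unmodified cells, ARID1A had a difference of 30, then 59 against IgG, 0 with strong peaks, 1 with the leading peaks, 15 in the start-site window, 46 there against IgG, 9 with strong peaks against IgG and 6 with those at start sites. Shares of all genes were 85.0% in shCtrl and 46.0% in unmodified cells against IgG, and 58.0% and 8.6% in the start-site window against IgG. H3K9me3 had 10, then 51 against IgG, 0 with strong peaks and -3 with the leading peaks. With input peaks that overlap an IgG peak it had 6 (95% interval -0.424 to 7.95). In the start-site window it had 1, and 28 there against IgG. All genes had H3K9me3 peaks in 79.3% and 27.4% of cases against IgG, and in 27.2% and 2.07% at start sites against IgG. TRIM28 had -4, then 34 against IgG, 8 with input peaks that overlap an IgG peak and 14 in the start-site window against IgG. For it the shares of all genes were 77.3% and 51.2% against IgG, and 18.6% and 7.11% in that window. The cause was not tested. Of the 10 counts in single libraries, 7 moved by more than 1.5 times with the control and 9 with strong peaks alone. Of the 16 counts of overlapping peaks, 14 moved with the control. The settings that combine IgG with the start-site window or strong peaks were added after seeing the data. No paired analysis was possible because each group holds 1 library.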

Other observations

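The 4 genes of the same symbol form on chromosome X stand outside the set. Of these, RPL10, a large-subunit gene, had 3 peaks of shCtrl SETDB1 against input, 2 of them strong, with a highest fold of 5.46. RPL36A had 1 with a fold of 2.58, and RPL39 and RPS4X had 0. RPS4X, which encodes a small-subunit protein, had a strong shARID1A H3K9me3 peak with a fold of 5.83 and 2 shARID1A TRIM28 peaks with a highest fold of 2.82. No other input list held a peak at any of the 4 genes.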
